A study of Homo sapiens with 16 samples.

Results

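The genes described here were the 46 interferon and RNA-sensing genes named by a list of symbols, all of which were found among the 26485 genes of the count table. They were read in every library to ask whether transfection of a small interfering RNA (siRNA), the control siRNA siNT1 included, was accompanied by an antiviral transcript response. The list held 6 sensors of double-stranded RNA, 5 transcription factors, 4 members of the IFIT family, 5 genes of the OAS family and nucleases, 4 genes of the ISG15 system, 17 other interferon-stimulated effectors and 5 genes of MHC class I antigen presentation.

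RNA was sequenced from 16 libraries of 2 cancer cell lines, PC3 from prostate and HeyA8 from ovary, both labelled wild type. Cells of each line were mock treated, or transfected by RNAiMax with siNT1 (a non-targeting siRNA), siGGGGGC (a toxic siRNA named for its 6mer seed, siMxy in the sample titles) or siCAG at a labelled dose of 1 nM, and harvested at 24 or 48 h. The study's methods name a higher dose, and whether mock cells received the lipid was not stated. Each combination of line, treatment and time was 1 library, so the 24 h and 48 h libraries served as the 2 replicates of a condition. The p-values then measured only the spread between these libraries.

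Totals ran from 27937092 to 29971612 counts in PC3 and from 29128446 to 31790209 counts in HeyA8. The prostate markers KLK3 and KLK2 were at 0 in every PC3 library. The ovarian-lineage factor PAX8 was at 59.3 to 215 CPM (counts scaled by library size, a level of the gene in a library) in HeyA8 and at 1.55 to 6.59 CPM in PC3. Of the other 3 ovarian markers read, MUC16 had at most 5 counts in any HeyA8 library and up to 20 in PC3, another was at 0 in every HeyA8 library and had 4 to 58 counts in PC3, and the last was lower in mock PC3 than in mock HeyA8 (log2 difference -1.07, adjusted p = 0.0126 in edgeR) but overlapped over all libraries (5.85 to 16.5 CPM in HeyA8, 9.57 to 14.8 CPM in PC3). Of 7 immune cell markers, 4 in PC3 and 5 in HeyA8 had at most 3 counts in any library. The most abundant of the 7 was CD68, at 355 to 1102 counts in PC3 and 648 to 2998 in HeyA8, and CD3E and IRF8 were at 0 in every library. The HeyA8 siCAG libraries stood apart from the other HeyA8 libraries. Their median correlation with the rest of the line, over log2 CPM of 13872 genes, was 0.936 at 24 h and 0.916 at 48 h, against at least 0.969 in the other HeyA8 libraries. The single transcript EEF1A1 took 1.97% and 2.02% of their counts, against 0.991% to 1.2% wherever it led in the rest of the line.

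Cells recognise double-stranded RNA through the cytosolic helicases RIG-I (DDX58) and MDA5 (IFIH1), the endosomal receptor TLR3, the kinase PKR (EIF2AK2) and the OAS enzymes. RIG-I and MDA5 signal through the adaptor MAVS, and TLR3 through TRIF, to the factors IRF3 and IRF7, which switch on type I and III interferons, whereas PKR blocks translation and the OAS enzymes activate RNase L. Secreted interferon then signals through JAK kinases to a complex that contains STAT2 and IRF9 and binds the interferon-stimulated response element (ISRE) of genes such as ISG15, MX1 and the IFIT family. Short siRNA duplexes are generally poor activators of these sensors, although some sequences and lipid complexes do activate them.

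The ISRE letters were common in the promoters of these genes, and a few windows that carry them are printed to show the shared element. Promoter windows from 250 bases before to 50 after the start (RefSeq, GRCh38.p14) were found for 37 of the 46 genes. The letters GAAA, any 2 bases and GAAA again, read on both strands and with overlapping matches counted, occurred in 22 of the 37 (59.5%), against 3.65% of all 27305 promoters of the same length. A match is a description of the letters, not evidence of a bound site. STAT2 and IRF9 held no match in this window. Each window below is 30 bases on the gene's strand, with the matched letters in capitals (TTTC, 2 bases and TTTC where the match lies on the other strand).
IFIT1, chr10:89392497-89392526 (+): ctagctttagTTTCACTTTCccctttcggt
IFIT3, chr10:89327865-89327894 (+): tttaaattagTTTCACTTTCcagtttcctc
ISG15, chr1:1013380-1013409 (+): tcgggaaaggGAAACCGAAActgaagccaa
TAP1, chr6:32853813-32853842 (-): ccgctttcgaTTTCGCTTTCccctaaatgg
IFI44, chr1:78649761-78649790 (+): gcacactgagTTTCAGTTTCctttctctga
IFI44L, chr1:78620365-78620394 (+): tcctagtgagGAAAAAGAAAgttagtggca
TLR3, chr4:186069142-186069171 (+): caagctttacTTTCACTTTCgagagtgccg
These 7 genes include ones that moved in opposite directions in the comparisons that follow. IFIT3 and TAP1 were called higher in HeyA8 under siCAG, whereas IFI44, IFI44L and TLR3 were called lower in PC3 under siGGGGGC. Of the 7 genes called higher in HeyA8 siCAG against siNT1, 4 had a promoter window and 2 held the letters. IFIT2, OASL and DHX58 had no window. In PC3 siGGGGGC against siNT1, all 3 called higher had a window and 1 held the letters. Of the 4 called lower, 3 had a window and all 3 held them, and OAS2 had none.

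In mock-treated cells the list was dominated by a few abundant transcripts. B2M, the invariant light chain of MHC class I, and ADAR, the enzyme that edits double-stranded RNA, together made up 43.2% to 51.8% of the summed CPM of the 46 genes in PC3 libraries and 46% to 56.7% in HeyA8 libraries. Per kilobase of exon, B2M ranked 1st in both lines (151 CPM per kb in mock PC3 and 125 in mock HeyA8). ISG15, the ubiquitin-like modifier, ranked 2nd in PC3 (74.7 CPM per kb) and 10th in HeyA8 (4.58 CPM per kb). The per-kilobase values were scaled within each line, so they rank the genes of a line and do not compare the lines. With both lines scaled together, B2M was at 408 and 428 CPM in mock PC3 and at 427 and 421 CPM in mock HeyA8. No library had a count above 3 for any interferon ligand except IFNE. All 21 ligand genes were at 0 in every HeyA8 library, and in PC3 the epithelial interferon IFNE had 7 to 74 counts. IFNB1 had 3 and 2 counts in the PC3 siGGGGGC libraries, 1 in PC3 siCAG at 48 h and 0 in the other PC3 libraries.

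The basal levels of the list differed between the lines. In mock cells, scaled together, 21 of 44 tested genes were called higher in PC3 and 6 lower, with the call being a Benjamini-Hochberg adjusted p under 0.05 in edgeR's quasi-likelihood test. Among all 15887 genes tested, 25.6% were called higher in PC3 and 19.9% lower. The median log2 difference was 0.93 over the 44 genes and 0.09 over all genes. Of the wider lists described further on, 5 of 24 other interferon-stimulated genes were called higher in PC3 and 7 lower (median -0.318, GBP1 at -3.52 ± 0.527 and IFI16 at -2.81 ± 0.421 among the lower), 5 of 18 signaling genes higher and 5 lower, and 4 of 10 antigen presentation genes higher and 3 lower. Within the 46, all 5 genes of the OAS and nuclease group were higher in PC3. OAS2, which makes the oligoadenylates that activate RNase L, was at 16.03 and 23.2 CPM in PC3 at 24 and 48 h and at 0.360 and 0.253 CPM in HeyA8 (log2 difference 5.65 ± 0.405 (SE), adjusted p = 2.27e-06). OAS1 had 804 counts over both PC3 mock libraries and 2 over both HeyA8 mock libraries, a ratio of 336 with a 95% interval of 92.8 to 2782 that covers counting error only. The levels of the OAS genes in the 2 lines did not overlap.

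ISG15 was at 48.6 and 66.1 CPM in mock PC3 and at 4.10 and 4.56 CPM in mock HeyA8 (log2 difference 3.62 ± 0.348, adjusted p = 1.49e-05). TAP1, a subunit of the peptide transporter that feeds MHC class I, was at 33.7 and 30.6 CPM in PC3 and at 4.53 and 4.52 CPM in HeyA8 (2.93 ± 0.327, adjusted p = 4.13e-05). MX1, a dynamin-like antiviral GTPase, was at 8.55 and 9.45 CPM against 0.360 and 0.434 CPM (4.21 ± 0.535, adjusted p = 0.000103). The reads of MX1 and its antisense neighbor TMPRSS2 share exonic positions, and whether the counting used strand was not stated. TMPRSS2 had 730 and 1014 counts in mock PC3 and 0 in every HeyA8 library, so it differed between the lines in the same direction as MX1, and its part in the MX1 values was not tested. CMPK2 and RSAD2, neighboring antiviral nucleotide-metabolism genes that overlap on opposite strands, were at 0 counts in every HeyA8 library. Against a floor of 3 counts over both mock libraries, CMPK2 was at least 75.0-fold, MX2 at least 17.0-fold and RSAD2 at least 14.2-fold higher in PC3.

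The 6 genes called lower in PC3 were DHX58, TRIM21, HERC6, IFI35, IFI44 and HLA-E. DHX58 encodes LGP2, a helicase that regulates RIG-I and MDA5 signaling. It had 0 counts in all 8 PC3 libraries and 60 counts over both HeyA8 mock libraries, at least 23.9-fold higher in HeyA8. TRIM21, an Fc receptor and ubiquitin ligase, was at 9.79 and 9.65 CPM in PC3 and 27.2 and 28.5 CPM in HeyA8 (-1.66 ± 0.317, adjusted p = 0.00153). HLA-E was at 98.3 and 98.0 CPM in PC3 and 158 and 175 CPM in HeyA8. XAF1 was at 0 in all 4 mock libraries. Leaving out 1 mock library at a time gave 18 to 26 called genes in place of 27, with 18 when the 24 h mock HeyA8 library was left out (26.3% of all genes called, against 45.5% with it).

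**Figure D1:**
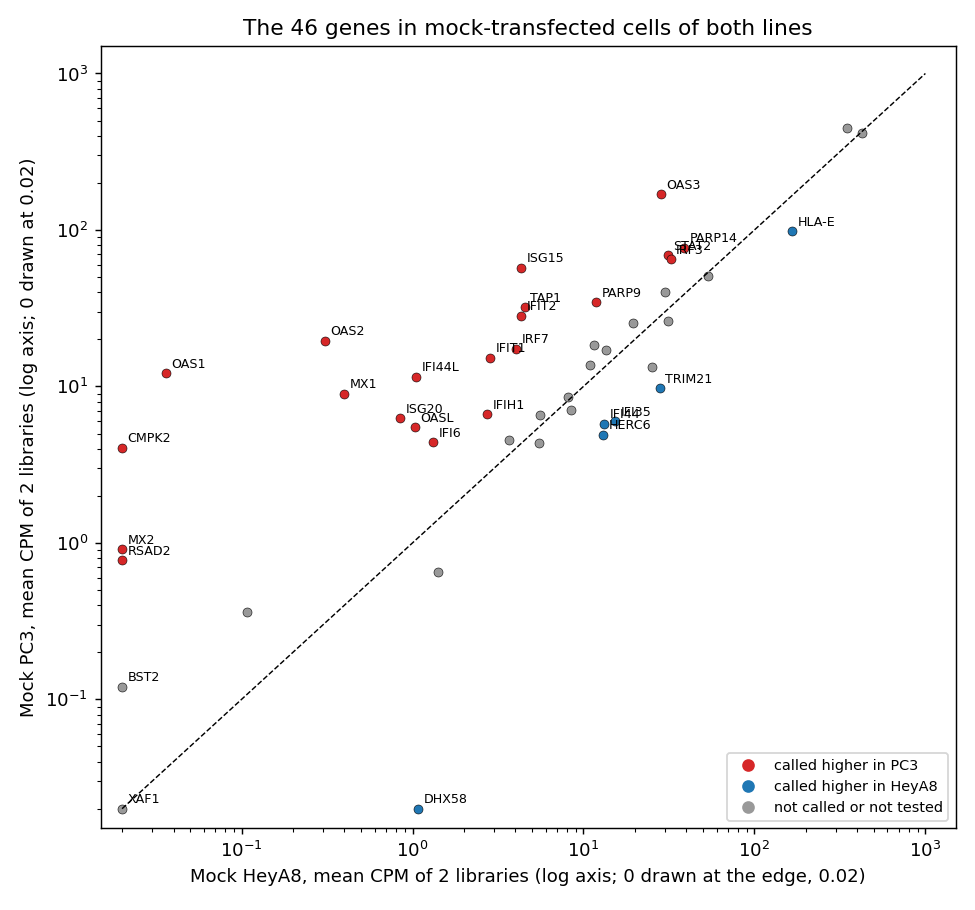
Mean CPM of each of the 46 genes in mock HeyA8 (x axis) and mock PC3 (y axis), 2 libraries each, on log axes with values of 0 drawn at 0.02. Points above the dashed line of equality are higher in PC3; red points are the 21 genes called higher there (OAS1, OAS2 and CMPK2 lie farthest from the line) and blue points the 6 called higher in HeyA8, among them DHX58, which is at 0 in PC3.

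The control siRNA siNT1 was set against mock treatment to ask whether transfection alone moved these genes. In neither line was any of the 46 genes called. In PC3, 0 of 43 tested genes passed, where 0.231% of 15136 genes did, and in HeyA8 0 of 39 passed, where 0% of 13872 genes did. At an unadjusted p under 0.05 in edgeR there were 5 of 43 in PC3 (9.01% of all genes) and 3 of 39 in HeyA8 (1.28% of all genes). DESeq2 called 1 of the genes higher in PC3, where it called 1.14% of all genes higher. In HeyA8 it called 0, where it called 0.00721% of all genes. The median log2 fold change of the tested genes was 0.04 in PC3 and -0.15 in HeyA8, against -0.01 and -0.0045 over all genes.

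RSAD2 (viperin, a radical enzyme that makes an antiviral nucleotide) had the highest of these fold changes in PC3. It was at 1.15 and 0.6 CPM in mock and at 3.39 and 1.79 CPM in siNT1 libraries at 24 and 48 h (log2 fold change 1.56 ± 0.312, adjusted p = 0.149). It is the gene that DESeq2 called. The siNT1 values lay above both mock values. IFIT1, which binds RNA lacking a host cap structure, was at 16.7 and 17.8 CPM in PC3 mock and at 11.6 and 8.98 CPM in PC3 siNT1 (-0.75 ± 0.199, adjusted p = 0.278). In HeyA8 it was at 2.79 and 2.44 CPM in mock and at 1.62 and 0.750 CPM in siNT1 (-1.20 ± 0.369, adjusted p = 1). In both lines the siNT1 values of IFIT1 lay below the mock values without overlap, but the adjusted p did not pass. Throughout, a lack of overlap between 2 libraries and 2 others describes the values and is not a test. The share of all genes without overlap was not counted.

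IFIT3, its partner in the IFIT complex, was at 21.7 and 19.7 CPM in PC3 mock and 15.5 and 9.06 CPM in siNT1 (-0.78 ± 0.21, adjusted p = 0.278). None of the double-stranded RNA sensors passed. DDX58 had log2 fold changes of -0.06 ± 0.17 in PC3 and -0.58 ± 0.41 in HeyA8, IFIH1 of 0.02 ± 0.29 and 0.04 ± 0.33, TLR3 of 0.21 ± 0.55 and -0.04 ± 0.69, and EIF2AK2 of -0.08 ± 0.19 and -0.25 ± 0.34. ISG15, a widely used marker of interferon response, was at 54.9 and 74.6 CPM in PC3 mock against 75.4 and 59.5 CPM in siNT1. In HeyA8 it was at 3.74 and 4.21 CPM in mock against 3.88 and 2.78 CPM in siNT1. The ISG15 groups overlapped in both lines. The next highest PC3 values were IRF1 (0.63 ± 0.235) and MX2 (0.59 ± 0.364), and the lowest was SAMD9 (-0.79 ± 0.423). In HeyA8 the highest were IFI6 (0.32 ± 0.691), HLA-B (0.27 ± 0.294) and HLA-C (0.245 ± 0.28), and OASL was among the lowest (-1.43 ± 0.579), resting on 22 and 2 counts in siNT1, with -3.02 without the 24 h and -0.83 without the 48 h siNT1 library. None of these passed. A fit on the 4 HeyA8 mock and siNT1 libraries alone called 10 of the genes lower under siNT1 and none higher, where 5.05% of 13298 genes were called lower and 6.79% higher. The 10 included IFIT1 (-1.17), IFIT2 (-0.71), IFIT3 (-0.63), DDX58 (-0.60) and SAMD9 (-0.84). The fit without the siCAG libraries called 0 of the list, where 0% of 13549 genes were called. The siNT1 effect was not called as different between the lines for any of 44 genes tested, where 0% of 15887 genes were.

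MX1 was at 9.66 and 10.7 CPM in PC3 mock and at 14.7 and 12.8 CPM in siNT1, above mock without overlap. IFI6, a small membrane-associated effector, was at 3.94 and 6.03 CPM in PC3 mock and 9.11 and 4.90 CPM in siNT1. IRF3, a factor activated downstream of MAVS and TRIF, was at 79.2 and 67.9 CPM in PC3 mock and 73.9 and 61.8 CPM in siNT1. The groups of IFI6 and IRF3 overlapped. IRF1 was at 9.42 and 10.7 CPM in HeyA8 mock and 10.1 and 13.0 CPM in siNT1, again with overlap. HLA-E was at 111 and 111 CPM in PC3 mock and 115 and 130 CPM in siNT1, higher without overlap but not called. OAS1 in PC3 was at 12.9 and 14.5 CPM in mock and 11.4 and 8.09 CPM in siNT1, lower without overlap and not called.

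**Figure D2:**
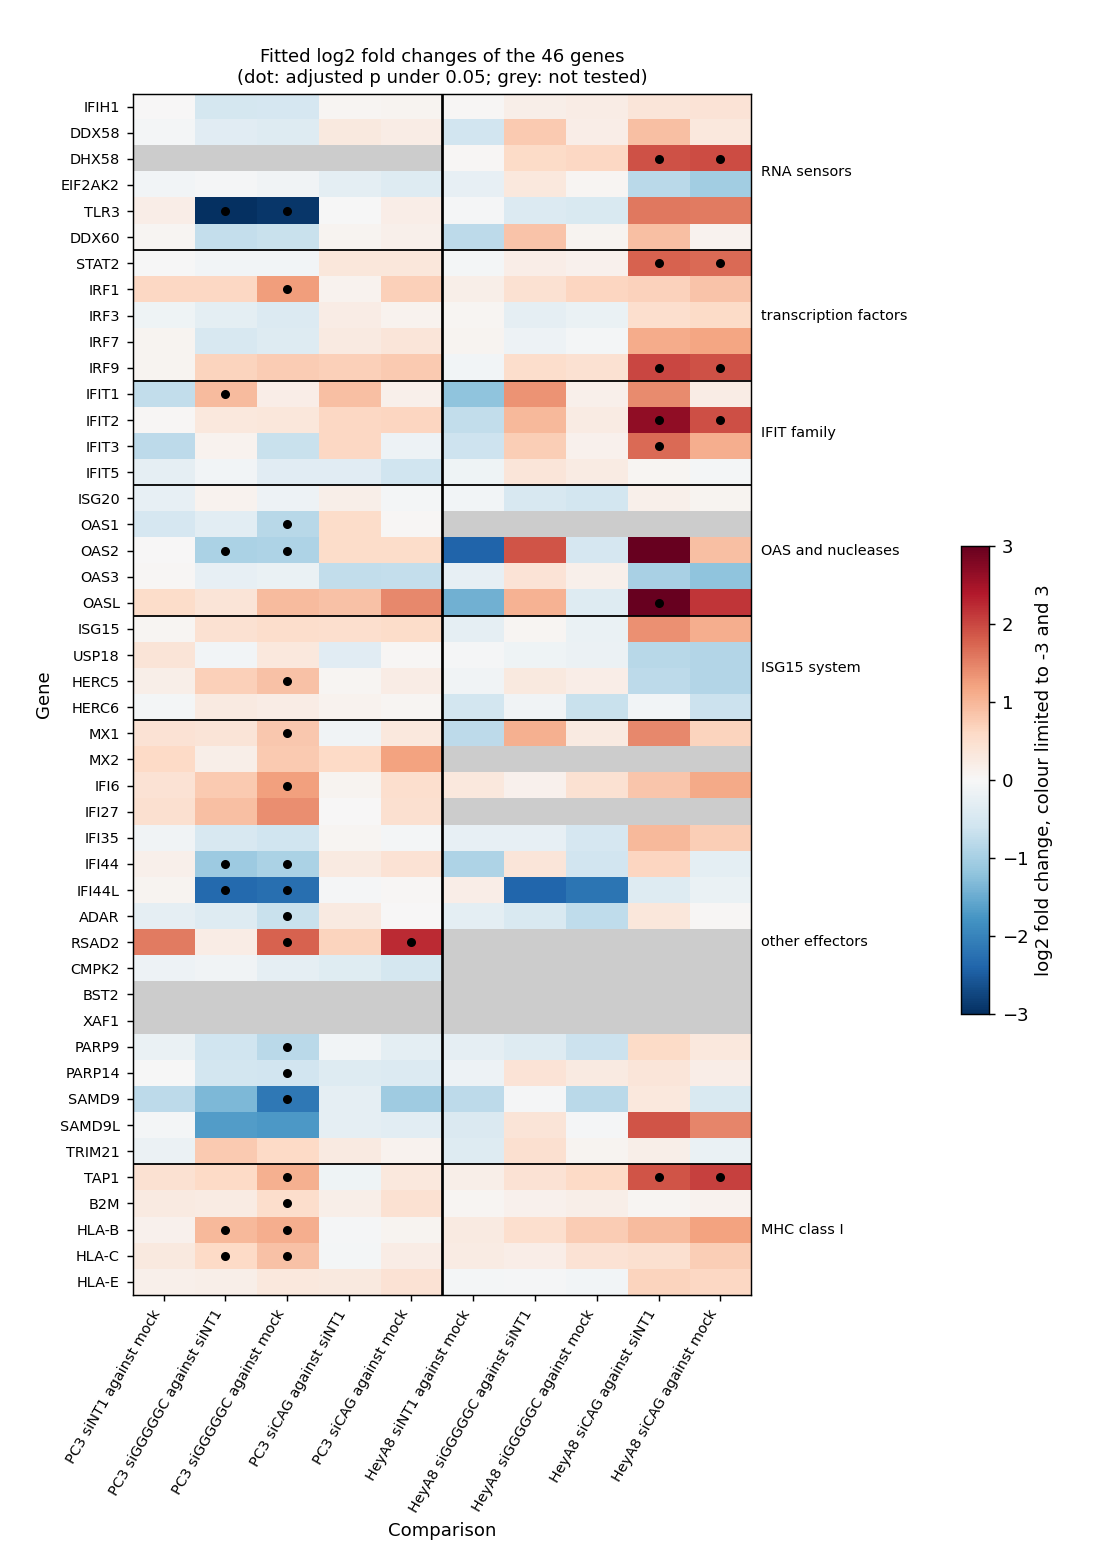
Fitted log2 fold change of each of the 46 genes (rows, grouped by role) in 5 comparisons per line (columns), with red for higher and blue for lower, a dot for an adjusted p under 0.05 and grey for genes not tested. The siNT1 against mock columns hold no dot, the dots of PC3 lie mainly in the siGGGGGC columns (7 and 18), and those of HeyA8 lie in the siCAG columns (7 and 5).

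In HeyA8 cells under siCAG the genes called were all higher. Against siNT1, 7 of 39 tested genes rose and 0 fell, where 7.81% of all 13872 genes were called, 2.88% higher and 4.93% lower. The 7 were IRF9 and STAT2, the interferon-specific subunits of the ISGF3 transcription factor, the effectors IFIT2, IFIT3 and OASL, the RNA helicase DHX58 and the peptide transporter subunit TAP1. In each of the 7 the siCAG value was above the siNT1 value at both 24 and 48 h. The calls rest on these same libraries, so the agreement of the times is not separate support. The median log2 fold change was 0.685 over the 39 tested genes and -0.01 over all genes, and 33 of the 39 were above 0. These values were from libraries that stood apart from the rest of the line, and the part of that in these fold changes was not tested.

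IRF9 was at 6.84 and 7.85 CPM in the siNT1 libraries at 24 and 48 h, 7.05 and 8.51 CPM in mock, 9.90 and 11.2 CPM in siGGGGGC, and 20.7 and 39.2 CPM in siCAG (log2 fold change against siNT1 2.005 ± 0.283, adjusted p = 0.0155). STAT2 was at 25.4 and 29.8 CPM in siNT1, 26.8 and 30.6 CPM in mock and 62.5 and 129 CPM in siCAG (1.76 ± 0.287, adjusted p = 0.0221). For both genes the siCAG libraries were above the other 6 HeyA8 libraries, and the 48 h library was above the 24 h library. In the annotation, IRF9 overlaps an exon of another gene on each strand, so reads at those positions cannot be assigned with certainty. The other transcription factors of the list were also above siNT1 but did not pass. IRF7, the amplifier of type I interferon transcription, was at 3.79 and 4.11 CPM in siNT1 and 8.5 and 8.09 CPM in siCAG (1.10 ± 0.323, adjusted p = 0.0806).

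IFIT2, which restricts viral translation, was at 2.80 and 1.93 CPM in siNT1, 5.35 and 2.57 CPM in mock and 11.2 and 17.5 CPM in siCAG (2.67 ± 0.446, adjusted p = 0.0235). IFIT3 was at 8.63 and 5.32 CPM in siNT1, 10.6 and 10.6 CPM in mock and 17.3 and 26.7 CPM in siCAG (1.70 ± 0.351, adjusted p = 0.039). IFIT1, in contrast, stayed between 0.750 and 3.46 CPM in all 8 libraries and was at 3.17 and 2.83 CPM in siCAG (1.42 ± 0.368, adjusted p = 0.0631). Its siCAG values were above siNT1 and just above mock but overlapped the siGGGGGC values. IFIT2 and IFIT3 share positions with exons of LIPA on the opposite strand. OASL, an OAS family member that enhances RIG-I signaling, was at 0.700 and 0.0714 CPM in siNT1 and at 4.98 and 2.76 CPM in siCAG (3.56 ± 0.572, adjusted p = 0.0212), against 1.31 and 0.567 CPM in mock. The siNT1 values of OASL were 22 and 2 counts, and its log2 fold change was 5.12 without the 24 h and 2.93 without the 48 h siNT1 library. OAS2 had 2 and 1 counts in siNT1, 10 and 7 in mock and 20 and 13 in siCAG (adjusted p = 0.0501).

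DHX58 was at 0.987 and 1.04 CPM in siNT1, 0.820 and 1.17 CPM in mock and 3.71 and 3.82 CPM in siCAG (1.92 ± 0.34, adjusted p = 0.0282). The remaining sensors did not pass. EIF2AK2 was at 43.7 and 39.6 CPM in siNT1 and at 15.4 and 32.6 CPM in siCAG, below siNT1 at both times (-0.81 ± 0.351, adjusted p = 0.181). DDX58 was below the mock value at 24 h (8.06 against 11.2 CPM) and above it at 48 h (26.1 against 13.6 CPM). TLR3 was at 1.78 CPM in siCAG at 24 h and at 5.65 CPM at 48 h, the highest value among the HeyA8 libraries, all others of which were at or below 1.81 CPM. SAMD9L behaved alike, with 4.25 CPM at 24 h and 22.9 CPM at 48 h in siCAG and 1.999 to 6.43 CPM in the other HeyA8 libraries. It was not called (1.89 ± 0.89, adjusted p = 0.21).

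TAP1 was at 4.77 and 4.57 CPM in siNT1, 4.13 and 4.17 CPM in mock and 15.4 and 18.7 CPM in siCAG (1.88 ± 0.356, adjusted p = 0.0328). Of the other MHC class I genes, none passed. HLA-B was at 38.1 and 31.5 CPM in siNT1 and 61.8 and 69.2 CPM in siCAG (0.94 ± 0.296, adjusted p = 0.0949), and HLA-E at 144 and 150 CPM against 232 and 229 CPM (0.67 ± 0.202, adjusted p = 0.0847). B2M overlapped, at 392 and 418 CPM in siNT1 and 319 and 525 CPM in siCAG. ISG15 was at 3.88 and 2.78 CPM in siNT1 and 9.93 and 7.003 CPM in siCAG (1.37 ± 0.348, adjusted p = 0.0597), and IRF3 at 33.3 and 29.3 CPM against 43.3 and 43.4 CPM (0.49 ± 0.239, adjusted p = 0.218). Both were higher in the siCAG libraries without overlap. Not all interferon-stimulated genes were above siNT1. OAS3 was at 22.4 and 21.3 CPM in siNT1 and 17.1 and 6.20 CPM in siCAG (-0.98 ± 0.388, adjusted p = 0.151). USP18, the protease that removes ISG15, was at 2.96 and 3.50 CPM against 3.23 and 0.771 CPM. HERC5, the ligase that attaches ISG15, was at 4.62 and 4.89 CPM against 2.06 and 3.50 CPM.

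Set against mock, which shares the siCAG libraries with the comparison above, 5 of 39 genes rose and 0 fell (8.97% of all genes were called, 3.44% higher and 5.53% lower). They were TAP1 (2.04 ± 0.358, adjusted p = 0.0247), DHX58 (1.95 ± 0.341, adjusted p = 0.0246), IFIT2 (1.94 ± 0.434, adjusted p = 0.0441), IRF9 (1.92 ± 0.282, adjusted p = 0.0164) and STAT2 (1.70 ± 0.287, adjusted p = 0.0229). OASL (2.13 ± 0.518) and IFIT3 (1.08 ± 0.342) had adjusted p of 0.0516 and 0.0946. The lowest were OAS3 (-1.22 ± 0.388, adjusted p = 0.0963), EIF2AK2 (-1.05 ± 0.353, adjusted p = 0.106) and USP18 (-0.88 ± 0.559, adjusted p = 0.336). Without the 24 h siCAG library OAS3 was at -1.99 and EIF2AK2 at -0.52. Without the 48 h siCAG library OAS3 was at -0.64 and EIF2AK2 at -1.72. The count depended on single libraries. Against siNT1 it was 0 without the 24 h or the 48 h siNT1 library, when 54 and 42 genes of the whole table were called. It was 20 (18 higher) without the 24 h siCAG library, when 14.1% of all genes were called higher and 17.4% lower, and 16 (13 higher) without the 48 h siCAG library, when 11% were called higher and 21.9% lower. Against mock the counts were 0 without the 24 h or the 48 h mock library (0.66% and 0.416% of all genes), and 15 (12 higher) and 19 (12 higher) without the 24 h and 48 h siCAG library, when 29.2% and 35.6% of all genes were called. The fit on the 4 siNT1 and siCAG libraries alone called 4 genes, IFIT2, OASL, IRF9 and TAP1, where 1.1% of all genes were called higher and 3.21% lower.

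**Figure D3:**
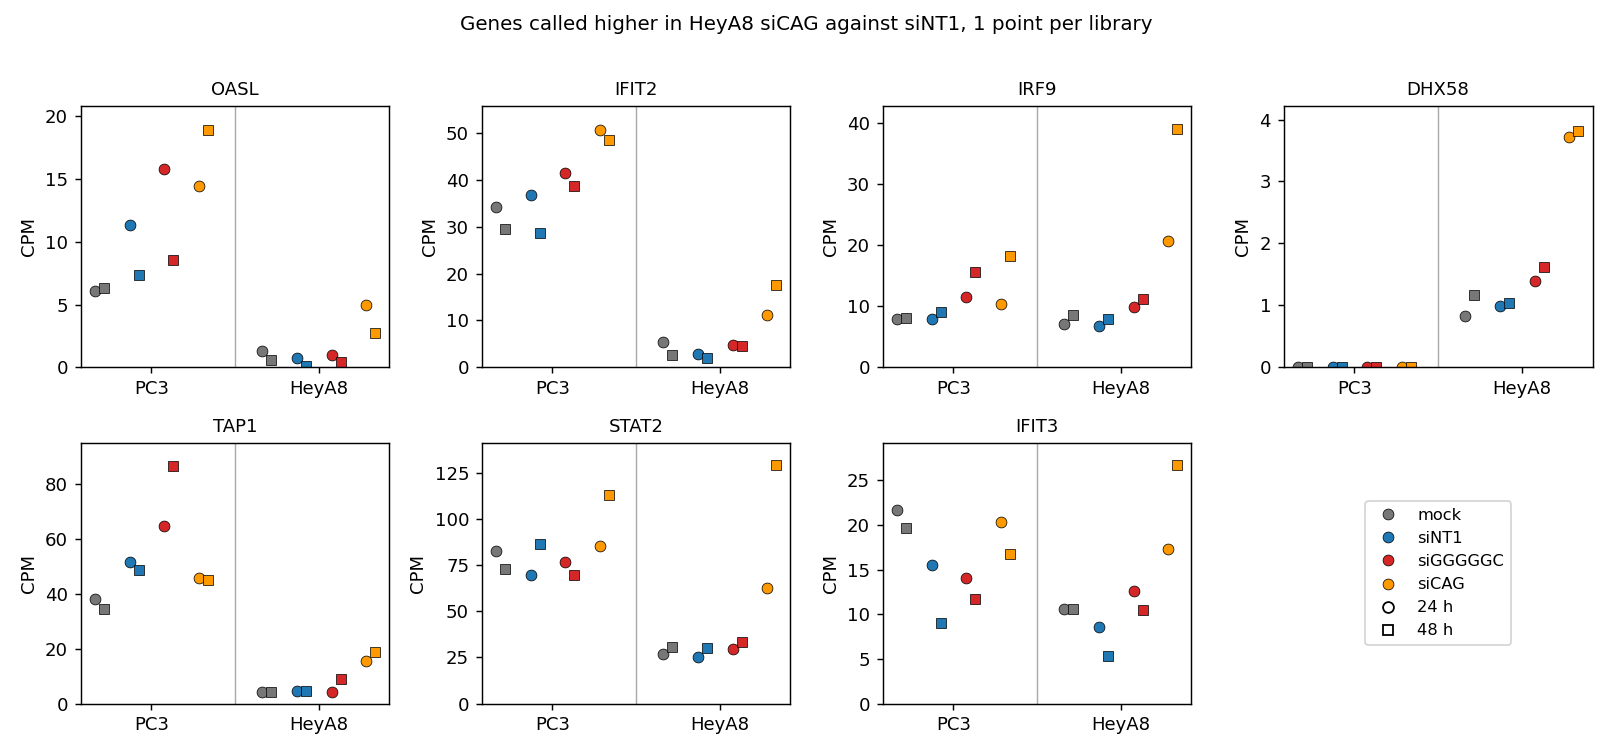
CPM of the 7 genes called higher in HeyA8 siCAG against siNT1, with 1 point per library (circles 24 h, squares 48 h; color for treatment; linear axes from 0; each line scaled on its own). In HeyA8 the siCAG points of all 7 genes lie above the siNT1 and mock points. In PC3 the siCAG points of IRF9, IFIT2, IFIT3 and OASL lie above siNT1 and those of STAT2 overlap it. The PC3 siCAG points of TAP1 (45.5 and 45.0 CPM) lie just below siNT1, and DHX58 is at 0.

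In PC3 cells, siCAG called 0 of 43 genes against siNT1, where 1.2% of 15136 genes were called, 0.0396% higher and 1.16% lower. At an unadjusted p under 0.05 there were 10 of 43 (13.5% of all genes), and DESeq2 called 3 (3.78% of all genes). Of the genes that rose in HeyA8, IRF9 was at 7.86 and 9.13 CPM in siNT1 and 10.3 and 18.3 CPM in siCAG (0.72 ± 0.235, adjusted p = 0.242). IFIT2 was at 36.8 and 28.7 CPM in siNT1 and 50.7 and 48.5 CPM in siCAG (0.61 ± 0.161, adjusted p = 0.163). IFIT1, not called in HeyA8, was at 11.6 and 8.98 CPM against 19.4 and 18.9 CPM (0.90 ± 0.199, adjusted p = 0.105). OASL was at 11.3 and 7.37 CPM against 14.4 and 18.9 CPM (0.88 ± 0.312, adjusted p = 0.279). The siCAG values of these 4 genes lay above the siNT1 values without overlap. Those of IFIT3 did too, at 15.5 and 9.06 CPM in siNT1 and 20.3 and 16.7 CPM in siCAG. STAT2 overlapped, at 69.3 and 86.4 CPM against 85.3 and 113 CPM. TAP1 was below siNT1, at 51.5 and 48.5 CPM against 45.5 and 45.0 CPM. None of these was called, and the share of all genes that separated in this way was not counted. OAS3 was lower by its values, at 203 and 186 CPM in siNT1 and 146 and 91.6 CPM in siCAG (-0.75 ± 0.177, adjusted p = 0.125), followed by PARP14 (-0.38 ± 0.165) and CMPK2 (-0.36 ± 0.247). The fit on the 4 PC3 libraries alone called 10 of the genes, 8 higher and 2 lower, where 4.92% of 14669 genes were called higher and 11.1% lower. The 8 were IFIT1, IFIT2, IFIT3, ISG15, OAS1, OAS2, OASL and IRF9, and the 2 were OAS3 and PARP14.

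Against mock, RSAD2 alone was called in PC3 under siCAG, where 2.58% of all genes were, 0.826% higher. It was at 1.15 and 0.6 CPM in mock and at 4.31 and 3.60 CPM in siCAG (2.23 ± 0.308, adjusted p = 0.0136), and 3.39 and 1.79 CPM in siNT1 lay between. OASL (1.44 ± 0.316, adjusted p = 0.0595) and MX2 (1.20 ± 0.357, adjusted p = 0.117) were next, and SAMD9 (-1.07 ± 0.42), OAS3 (-0.71 ± 0.177) and IFIT5 (-0.61 ± 0.235) were lowest. The call was lost without the 24 h mock library, without the 48 h mock library or without the 48 h siCAG library (0 of the list called each, where 0.42%, 0.274% and 0.427% of all genes were), and 2 genes were called without the 24 h siCAG library (3.82% of all genes).

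The difference between the lines in the response to siCAG, tested as an interaction over all 16 libraries, was called for 1 of 44 genes, where 0.636% of 15887 genes were called, 0.384% higher in PC3 and 0.252% lower. It was TAP1, whose log2 fold change was lower in PC3 by 2.13 (-2.13 ± 0.402, adjusted p = 0.0458). The median of all genes in this contrast was -0.125, or -0.07 with the RLE size factors, under which TAP1 had an adjusted p of 0.0512. IFIT2 (-2.15 ± 0.448, adjusted p = 0.0666), OASL (-2.73 ± 0.618, adjusted p = 0.0854) and STAT2 (-1.51 ± 0.345, adjusted p = 0.0868) did not pass. Leaving out RSAD2, at 0 counts in HeyA8, the highest differences, HERC5 (0.74 ± 0.342) and EIF2AK2 (0.40 ± 0.395), did not pass either. Without any 1 of the 4 PC3 libraries or of the 2 HeyA8 siNT1 libraries the count was 0, where 0.00608% to 0.213% of all genes were called, and it was 11 and 5, all lower in PC3, without the 24 h and 48 h HeyA8 siCAG library, when 4.44% and 1.86% of all genes were called lower.

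In PC3 cells under siGGGGGC the list moved in both directions. Against siNT1, 3 of 43 tested genes rose and 4 fell, where 9.67% of 15136 genes were called, 3.67% higher and 6% lower. The genes that rose were HLA-B and HLA-C, heavy chains of MHC class I, and IFIT1. Those that fell were TLR3, IFI44L, IFI44 and OAS2. Each of the 7 differed in the same direction at 24 and 48 h, in the same libraries on which the calls rest. The fit on the 4 siNT1 and siGGGGGC libraries alone called IFI44L only, where 2.99% of 14648 genes were called, and the other 6 had adjusted p of 0.081 to 0.151. The median log2 fold change was -0.03 over the 43 genes and 0.0029 over all genes.

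HLA-B was at 30.4 and 35.2 CPM in siNT1, 30.02 and 29.2 CPM in mock and 45.4 and 85.8 CPM in siGGGGGC (0.97 ± 0.241, adjusted p = 0.0464). HLA-C was at 52.5 and 56.7 CPM in siNT1, 40.7 and 49.6 CPM in mock and 73.9 and 90.3 CPM in siGGGGGC (0.60 ± 0.148, adjusted p = 0.0465). The siGGGGGC libraries were the highest of the line for both genes. These class I genes are close paralogs, so the assignment of reads between them is uncertain. TAP1 was at 51.5 and 48.5 CPM in siNT1 and 64.7 and 86.3 CPM in siGGGGGC (0.61 ± 0.186, adjusted p = 0.0742), and B2M at 518 and 629 CPM against 598 and 761 CPM (0.26 ± 0.153, adjusted p = 0.278). IFIT1 was at 18.6 and 20.6 CPM in siGGGGGC, above siNT1 (11.6 and 8.98 CPM; 0.95 ± 0.2, adjusted p = 0.0322) and close to mock (16.7 and 17.8 CPM; 0.20 ± 0.2, adjusted p = 0.482).

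IFI44L, an interferon-stimulated gene that restrains the response, was at 17.6 and 10.99 CPM in siNT1, 14.2 and 11.9 CPM in mock, 18.8 and 9.54 CPM in siCAG and 3.73 and 1.94 CPM in siGGGGGC (-2.34 ± 0.247, adjusted p = 0.00773). Both siGGGGGC libraries were below the other 6 PC3 libraries. IFI44, its neighbor on chromosome 1, was at 9.50 and 5.66 CPM in siNT1 and 4.33 and 2.68 CPM in siGGGGGC (-1.09 ± 0.266, adjusted p = 0.0445). OAS2 was at 19.5 and 24.7 CPM in siNT1 and 11.3 and 11.2 CPM in siGGGGGC (-0.94 ± 0.188, adjusted p = 0.0288). TLR3 had 36 and 13 counts in siNT1, 29 and 14 in mock and 1 and 4 in siGGGGGC (-3.13 ± 0.749, adjusted p = 0.0428), so its change rests on few reads. Its log2 fold change was -5.003 without the 48 h and -1.80 without the 24 h siGGGGGC library, and it passed in 1 of the 4 fits that left out a library. The other RNA sensors were below siNT1 or near it without passing, at -0.53 ± 0.29 for IFIH1, -0.34 ± 0.17 for DDX58 and -0.03 ± 0.19 for EIF2AK2.

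Against mock, 9 of 43 genes rose and 9 fell, where 8.83% and 12.3% of all genes did. The 9 higher included 4 of the 5 MHC class I genes, HLA-B (1.10 ± 0.242, adjusted p = 0.0209), TAP1 (1.07 ± 0.188, adjusted p = 0.0118), HLA-C (0.88 ± 0.149, adjusted p = 0.0106) and B2M (0.53 ± 0.153, adjusted p = 0.0456). IRF1, the factor that drives MHC class I and other interferon gamma-responsive genes, was at 17.4 and 13.5 CPM in mock, 25.1 and 22.7 CPM in siNT1 and 31.9 and 41.3 CPM in siGGGGGC (1.25 ± 0.237, adjusted p = 0.0146). MX1 was at 14.5 and 21.1 CPM and IFI6 at 13.9 and 9.83 CPM in siGGGGGC, the latter against 3.94 and 6.03 CPM in mock. Both genes lay above mock without overlap. RSAD2 (1.78), IFI6 (1.22), HERC5 (0.87) and MX1 (0.82) completed the 9. The 9 lower were TLR3, IFI44L, IFI44, OAS1, OAS2, SAMD9, PARP9, PARP14 and ADAR. ADAR was at 526 and 486 CPM in mock, 425 and 416 CPM in siNT1 and 330 and 303 CPM in siGGGGGC (-0.66 ± 0.139, adjusted p = 0.0185). SAMD9, an antiviral translation inhibitor, was at 16.4 and 13.7 CPM in mock and 3.45 and 3.24 CPM in siGGGGGC (-2.14 ± 0.442, adjusted p = 0.0178), but at 3.94 CPM in the 48 h siNT1 library.

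IFI27, at 0.384 to 1.27 CPM in PC3, was not called against siNT1 (0.90 ± 0.411, adjusted p = 0.175) or mock (1.38 ± 0.427, adjusted p = 0.0545), and neither was SAMD9L against siNT1 (-1.67 ± 0.623, adjusted p = 0.114), whose fold change was -0.78 without the 24 h and -2.83 without the 48 h siGGGGGC library. ISG15 was at 99.7 and 84.0 CPM in siGGGGGC and IRF3 at 73.7 and 39.1 CPM, neither of them called against siNT1.

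The counts of called genes in PC3 also changed with single libraries. Against siNT1 the count was 0 without the 24 h or the 48 h siNT1 library, when 0 genes of the whole table were called. It was 13 without the 24 h siGGGGGC library (23.5% of all genes called) and 2 without the 48 h siGGGGGC library (3.99%). Against mock it was 4 without the 24 h mock library (5.42%) and 0 without the 48 h mock library (0%). The 48 h siGGGGGC library had the lowest median correlation with the rest of PC3, at 0.953 against at least 0.9701 in the other libraries.

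**Figure D4:**
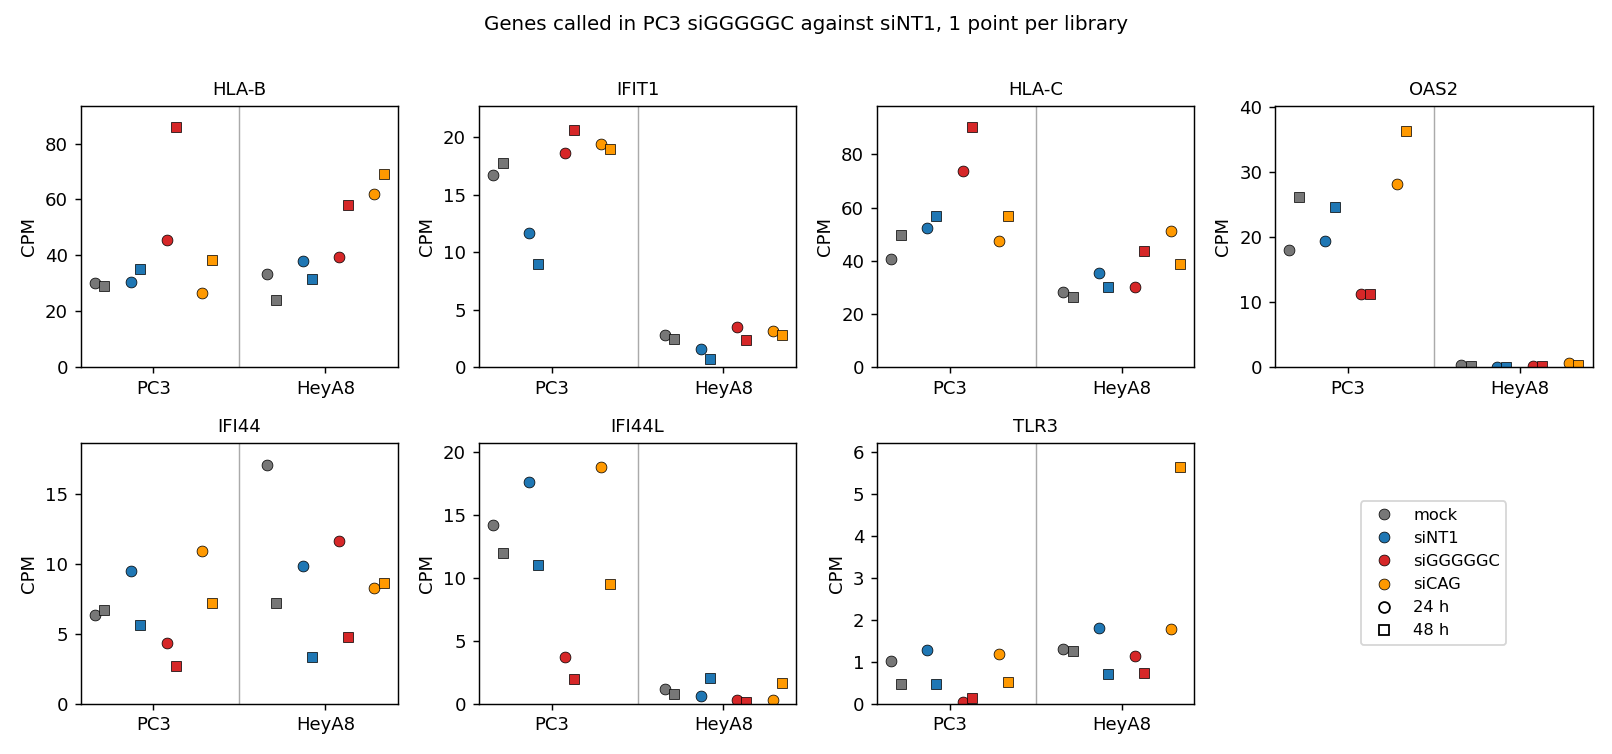
CPM of the 7 genes called in PC3 siGGGGGC against siNT1, with 1 point per library (circles 24 h, squares 48 h; color for treatment; linear axes from 0; each line scaled on its own). In PC3 the siGGGGGC points of HLA-B and HLA-C are the highest of the line, IFIT1 is close to mock, and the siGGGGGC points of IFI44L, IFI44, OAS2 and TLR3 are the lowest.

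In HeyA8 cells siGGGGGC called 0 of 39 genes against siNT1 and 0 against mock, where 0% of 13872 genes were called in both. At an unadjusted p under 0.05 there were 1 and 3 of the 39 genes (9.75% and 8.33% of all genes), and DESeq2 called 0 in both, where it called 2.29% and 1.59% of all genes. IFI44L had the lowest fold change, at 0.573 and 1.999 CPM in siNT1, 1.18 and 0.734 CPM in mock and 0.317 and 0.0969 CPM in siGGGGGC (-2.38 ± 1.02, adjusted p = 0.519). The siGGGGGC values were 10 and 3 counts, and the log2 fold change of IFI44L was -4.03 without the 24 h and -1.22 without the 48 h siGGGGGC library. The siCAG library at 24 h was equally low (0.317 CPM). ADAR was at 265 and 258 CPM in siNT1, 311 and 326 CPM in mock and 204 and 173 CPM in siGGGGGC (-0.46 ± 0.203 against siNT1, adjusted p = 0.521; -0.76 ± 0.204 against mock, adjusted p = 0.431). Both siGGGGGC values of ADAR were below the other 6 HeyA8 libraries. IFIT1 was at 3.46 and 2.39 CPM against 1.62 and 0.750 CPM in siNT1 (1.34 ± 0.367, adjusted p = 0.346). Against mock, HLA-B (0.77 ± 0.297), IRF1 (0.64 ± 0.258) and DHX58 (0.61 ± 0.343) were the highest and none passed. MX1 against siNT1 (1.06 ± 0.781), ISG20 against siNT1 (-0.47 ± 0.635) and SAMD9 against mock (-0.82 ± 0.875) had standard errors near or above their fold changes. Fits on the 4 libraries alone called IFI44L against siNT1 (-2.40, adjusted p = 0.0295; 8.86% of genes called) and ADAR against mock (-0.75, adjusted p = 0.0383; 2.84%). The siGGGGGC effect was not called as different between the lines for any of 44 genes, where 0% of 15887 genes were called.

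The seed of siGGGGGC pairs with GCCCCC, which was searched in the longest annotated 3′ UTR of each gene (GENCODE release 44, hg38). It occurred in 10 of the 46 genes (21.7%), against 29.6% of 19607 genes. IFI44L, IFI44 and TLR3, which fell in PC3, had none. Among the 10 tested in PC3, 1 was called higher (IFIT1) and 1 lower (OAS2) against siNT1, with a median log2 fold change of 0.14, against -0.07 over the 33 without the letters. Against mock, 1 of the 10 was higher (MX1) and 3 were lower (OAS2, ADAR and PARP9), with a median of 0.03, and of the 33 without the letters 8 were higher and 6 lower, with a median of -0.12. In HeyA8, where none of these genes was called, the medians of the 9 tested with the letters and the 30 without were 0.40 and 0.30 against siNT1 and -0.40 and 0.13 against mock. The sites of the 5 called genes, IFIT1 and MX1 (higher) and OAS2, ADAR and PARP9 (lower), are printed as 30 bases on the transcript's strand with the match in capitals.
IFIT1, chr10:89404524-89404553 (+): tgaatattcataGCCCCCcataacctgtta
MX1, chr21:41469954-41469983 (+): aggagccaggatGCCCCCcactaccttccc
OAS2, chr12:113009373-113009402 (+): aacagctggtcaGCCCCCtaagcccccact
OAS2, chr12:113009382-113009411 (+): tcagccccctaaGCCCCCactacaagtgat
ADAR, chr1:154584591-154584620 (-): aggtctggccagGCCCCCcttttttccccc
ADAR, chr1:154582471-154582500 (-): gcacatccctgcGCCCCCatgcccctctga
PARP9, chr3:122535559-122535588 (-): aattcttatattGCCCCCtctactcctcag
PARP9, chr3:122534545-122534574 (-): aggcaagatactGCCCCCaacatactcatt
PARP9, chr3:122531987-122532016 (-): ttccattgttctGCCCCCtcttgactccca
The OAS2 matches lie 9 bases apart, so their windows overlap. PARP9, an ADP-ribosyltransferase family member, was at 36.5 and 41.6 CPM in PC3 mock and 22.3 and 22.0 CPM in siGGGGGC (-0.80 ± 0.162, adjusted p = 0.0168), and it overlaps DTX3L on the opposite strand.

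The wider pathway was read from a list of 87 further genes of ligands, receptors, signaling components, other interferon-stimulated genes and antigen presentation. In HeyA8 siCAG against siNT1, 0 of 5 tested receptor genes rose and 1 fell, 4 of 17 signaling genes rose and 1 fell, 3 of 21 other interferon-stimulated genes rose and 0 fell, and 1 of 9 antigen presentation genes rose and 0 fell, where 2.88% of all 13872 genes were called higher and 4.93% lower. TMEM173 (STING, the adaptor of DNA sensing) was at 18.9 and 11.1 CPM in siNT1 and 65.7 and 59.6 CPM in siCAG (2.12 ± 0.261, adjusted p = 0.0105). MB21D1 (cGAS, the DNA sensor upstream of STING) was at 26.5 and 22.3 CPM against 8.18 and 5.14 CPM (-1.87 ± 0.245, adjusted p = 0.0124). The kinase gene IKBKE was at 6.08 and 5.96 CPM against 18.1 and 22.7 CPM (1.78 ± 0.251, adjusted p = 0.0155). The siCAG groups of all 3 genes lay apart from the other HeyA8 libraries.

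MYD88 (1.22 ± 0.219, adjusted p = 0.0293), UBE2L6 (1.98 ± 0.376, adjusted p = 0.0329), IFITM3 (1.49 ± 0.228, adjusted p = 0.0192), LGALS3BP (0.92 ± 0.2, adjusted p = 0.0437), the immunoproteasome gene PSMB8 (1.56 ± 0.276, adjusted p = 0.0282) and MAVS (1.01 ± 0.236, with an adjusted p that rounds to 0.05) were also called, all of them higher. The chemokine gene CXCL10, a strong interferon target, was at 0 in every HeyA8 library. IFNGR2, a chain of the interferon gamma receptor, fell under siCAG in both lines. In PC3 it was at 77.4 and 93.3 CPM in siNT1 and 35.6 and 31.1 CPM in siCAG (-1.34 ± 0.18, adjusted p = 0.0146). In HeyA8 it was at 31.5 and 33.7 CPM against 11.8 and 8.74 CPM (-1.63 ± 0.302, adjusted p = 0.0311). In both lines its siCAG libraries were the lowest.

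The name siCAG was read as the letters CAG, whose complement is CTG, and runs of CTG were counted in the transcripts of the list. In these sequences none of the 46 genes held at least 6 CTG in a row, which 0.449% of 19607 genes did. The longest run was 4, in HERC6, which was not called under siCAG in either line, and IFNGR2 also held 4; at least 4 in a row occurred in 2.67% of all genes.

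In PC3 siGGGGGC against siNT1, 0 of 6 receptor genes were called, 2 of 18 signaling genes fell and 0 rose, 5 of 24 other interferon-stimulated genes fell and 0 rose, and of 10 antigen presentation genes ERAP1 rose (0.67 ± 0.171, adjusted p = 0.0485) and ERAP2 fell (-0.86 ± 0.167, adjusted p = 0.0276). Of all 15136 genes, 3.67% were called higher and 6% lower. The kinase gene JAK2 was at 19.4 and 13.0 CPM in siNT1 and 5.55 and 5.57 CPM in siGGGGGC (-1.49 ± 0.264, adjusted p = 0.0218). MAVS was at 297 and 363 CPM against 200 and 185 CPM (-0.75 ± 0.165, adjusted p = 0.035). The nuclear DNA sensor IFI16 was at 22.1 and 15.0 CPM against 7.43 and 4.09 CPM (-1.69 ± 0.226, adjusted p = 0.0127). The groups of each of these genes did not overlap. DDX60L (-1.60 ± 0.18, adjusted p = 0.00873), SAMHD1 (-0.88 ± 0.164, adjusted p = 0.0247), DTX3L (-0.83 ± 0.206, adjusted p = 0.0463) and PLSCR1 (-0.82, adjusted p = 0.047) were the other genes that fell. Of the 8 that fell, MAVS and SAMHD1 held 3 GCCCCC matches each and DTX3L 4 in the longest 3′ UTR, and JAK2, IFI16, DDX60L, PLSCR1 and ERAP2 held 0, as did ERAP1, which rose.

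Time after transfection was compared over all treatments of a line. Between 48 and 24 h, 0 of 43 genes in PC3 and 0 of 39 in HeyA8 were called, where 0.0264% and 0% of all genes were. At an unadjusted p under 0.05 there were 13 of 43 in PC3 (13.4% of all genes) and 3 of 39 in HeyA8 (6.34%). DESeq2 called 1 in PC3 and 0 in HeyA8, where it called 1.45% and 0.44% of all genes. The largest values in PC3 were the lower TLR3 (-1.003 ± 0.431), IFI44L (-0.69 ± 0.165) and RSAD2 (-0.67 ± 0.207) and the higher MX2 (0.66 ± 0.25), IFI27 (0.58 ± 0.303) and HLA-B (0.42 ± 0.17) at 48 h. In HeyA8 they were the lower OASL (-1.32 ± 0.388), IFI44 (-1.01 ± 0.297) and USP18 (-0.56 ± 0.396) and the higher DDX58 (0.76 ± 0.291), IFI44L (0.68 ± 0.696) and IFIH1 (0.52 ± 0.229). OASL in HeyA8 was lower at 48 h than at 24 h in each of the 4 treatments. The fit on mock and siNT1 libraries alone called 7 of the genes lower at 48 h in HeyA8 and 0 higher, where 6.76% of genes were called lower and 5.2% higher.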

How the data were processed

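The members and the wider lists were chosen with earlier results of these data known. The authors prepared ribosomal RNA-depleted total RNA libraries (TruSeq), trimmed the paired reads, aligned them to hg38 (with TopHat or STAR in their methods, STAR in the submitters' processing notes) and assigned exonic reads to genes with HTSeq. They deposited raw counts for 26485 genes by symbol. The strand setting was not given in the sources used here.

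Counts were fitted in edgeR 4.0.16 (R 4.3.3) with TMM scaling, filterByExpr and the quasi-likelihood test (glmQLFit, glmQLFTest). Each line was fitted on its own over 8 libraries with treatment and time point as terms (3 residual degrees of freedom), so 1 siRNA effect was assumed for both times. Line differences and the mock comparison used all 16 libraries (6 residual degrees of freedom). The filter left 15136, 13872 and 15887 genes, with 43, 39 and 44 of the 46 members. DHX58, BST2 and XAF1 were not tested in PC3, and OAS1, MX2, IFI27, RSAD2, CMPK2, BST2 and XAF1 were not tested in HeyA8. Benjamini-Hochberg adjustment ran over all genes tested, with 0.05 as the threshold. SE is the absolute log2 fold change over the square root of F. The biological coefficient of variation was 18% in PC3, 28.2% in HeyA8 and 23.5% jointly. CPM were scaled within each line, except that the mock comparison scaled both together. A floor of 3 counts equalled 0.0951 to 0.107 CPM.

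Genes named in the text were fixed indicators (sensors, transcription factors, effectors and MHC class I genes), every member called in a comparison, the 3 highest and 3 lowest fold changes of each comparison, and up to 5 called genes of each wider list. Those resting on a few counts in 1 group are given as counts or left out. CXCL10, IFNB1 and IFNE were chosen after their values were seen. Alternatives were RLE size factors, no filter, DESeq2 1.42.0, no time term, fewer libraries and leaving out each library. The fitting code was tested on simulated data. Exons, 3′ UTRs and overlaps came from GENCODE release 44 (hg38), where all 46 members matched, 1 through an older symbol (DDX58).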

Additional observations from a re-analysis of the deposited data

Results flagged for a closer look

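TAP1 was the only gene of the 46 whose response to siCAG was called as different between the lines: the log2 fold change against siNT1 was lower by 2.13 in PC3 than in HeyA8 (-2.13 ± 0.402, adjusted p = 0.0458 in edgeR). Of 18 signaling genes of the wider list, TMEM173 (-2.10 ± 0.364, adjusted p = 0.0311) and IKBKE (-1.74 ± 0.317, adjusted p = 0.0391) were also called lower in PC3. By the same test, 0.252% of 15887 genes were called lower and 0.384% higher. In PC3 TAP1 was at 51.5 and 48.5 CPM in siNT1 and 45.5 and 45.0 CPM in siCAG, and in HeyA8 at 4.77 and 4.57 CPM in siNT1 and 15.4 and 18.7 CPM in siCAG. The difference of TAP1 missed the threshold with RLE size factors (adjusted p = 0.0512) or on the 8 siNT1 and siCAG libraries alone (adjusted p = 0.239). PSMB8-AS1 shares exonic positions with TAP1 on the opposite strand.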

How the results depend on the processing

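Counts are of the 46 genes called, each with the share of all tested genes called by the same fit in parentheses. DESeq2 called 1 for PC3 siNT1 against mock (1.76%), 13 for PC3 siGGGGGC against siNT1 (18.9%), 3 for PC3 siCAG against siNT1 (3.78%), 5 for PC3 siCAG against mock (9.06%), 1 for PC3 48 h against 24 h (1.45%), 13 for HeyA8 siCAG against siNT1 (19.2%), 14 for HeyA8 siCAG against mock (20.1%) and 6 for the line difference in siCAG (4.22%). The 2 conditions fitted alone gave 1 for PC3 siGGGGGC against siNT1 (2.99%), 10 for PC3 siCAG against siNT1 (16%), 0 for PC3 siCAG against mock (1.08%), 10 for HeyA8 siNT1 against mock (11.8%), 1 for HeyA8 siGGGGGC against siNT1 (8.86%), 1 for HeyA8 siGGGGGC against mock (2.84%), 4 for HeyA8 siCAG against siNT1 (4.31%) and 0 for the line difference in siCAG (0%). Chosen after seeing the data, fits without siGGGGGC gave 5 for PC3 siCAG against mock (8.81%), 2 for HeyA8 siCAG against siNT1 (1.94%) and 2 against mock (2.42%), and a fit without siCAG gave 1 for HeyA8 siGGGGGC against mock (1.54%). Without the filter, PC3 siCAG against mock gave 2 (3.65%) and the line difference in siCAG 2 (0.623%), and RLE size factors gave 0 for the latter (0.604%). HeyA8 time on mock and siNT1 libraries alone gave 7 (12%). The replicate numbers are time points, so the replicate block is the time term of the main design; without the block, PC3 siGGGGGC against siNT1 gave 2 (4.13%) and PC3 siCAG against mock 0 (1.49%). The 48 h minus 24 h differences of the treatments correlated at 0.0546 to 0.611 in PC3 and -0.0431 to 0.46 in HeyA8.

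Leaving out 1 library at a time gave 0 (0%) to 13 (23.5%) for PC3 siGGGGGC against siNT1, 0 (0%) to 19 (28.6%) against mock, 0 (0.274% to 0.427%) to 2 (3.82%) for PC3 siCAG against mock, 0 (0.291% and 0.376%) to 20 (31.5%) for HeyA8 siCAG against siNT1, 0 (0.416% and 0.66%) to 19 (35.6%) against mock, 0 (0.00608% to 0.213%) to 11 (9.24%) for the line difference in siCAG and 18 (26.3%) to 26 (34.9%) for the mock lines. In HeyA8, the log2 fold change of MX1 (siGGGGGC against siNT1) ran from -0.24 to 1.80, and that of SAMD9L (siCAG) from -0.067 to 3.11 against siNT1 and from -0.55 to 2.63 against mock, reversing without 1 library. The cause was not tested. With 2 libraries a condition, taken at different times, a change at 1 time alone adds to the spread, and genes under about 10 counts (OAS1 in HeyA8, OAS2 in HeyA8 siNT1, TLR3 in PC3 siGGGGGC) were measured least precisely.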
